A study of Mus musculus with 10 samples.

Results

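The cytosolic ribosomal protein genes encode the proteins of the ribosome that translates messenger RNA in the cytoplasm. The rule picked them by name alone, from the protein-coding genes of the GENCODE annotation of GRCm39. It took symbols of the Rpl or Rps form, together with Rplp0, Rplp1, Rplp2 and Rpsa, and left out the Rps6k kinases. No measured value entered the rule, but the members were chosen with earlier results of these data known. The rule found 84 genes among the 78298 rows of the authors' count table, 51 of the large subunit and 33 of the small subunit. They lie on 19 chromosomes, with 14 on chromosome 7 and 8 on chromosome 17, which also carries Mapk13. A filter on low counts was passed by 82 of the 84, and the other 2, Rpl10l and Rpl39l, are described with the paralogs.

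Ribosomal proteins assemble with ribosomal RNA into a large subunit, which joins amino acids, and a small subunit, which reads the messenger RNA. Cells make them in near-equal amounts, and most of their messenger RNAs begin with a terminal oligopyrimidine (TOP) tract, through which mTORC1 and LARP1 set their translation and their stability. Heart and skeletal muscle also express Rpl3l, a paralog that takes the place of Rpl3 in part of the ribosomes. Doxorubicin, an anthracycline chemotherapy drug that damages heart muscle, is known to inhibit the synthesis of ribosomal RNA.

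RNA was sequenced from hearts of female mice, 5 samples labelled wild type (WT) and 5 labelled as germline knockouts (KO) of p38δ, the stress-activated kinase encoded by Mapk13. The mice of all 10 samples were on a C57BL/6J background and had received doxorubicin at 30 mg/kg into the peritoneum 72 h before the hearts were taken, and no heart without the drug was compared. A germline deletion is carried by every cell of the animal. The deleted allele, the ages of the mice and any batch of the libraries were not given in the sources used here. Nothing in the labels says that each sample came from a separate animal, so the p-values measure only the spread between these samples, which may be technical.

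Library totals ran from 21403189 to 40627138 counts, and edgeR called 59 of 16700 tested genes at an adjusted p of 0.05. Mapk13 did not check the labels: the WT-labelled libraries held 292, 5, 2, 1 and 4 counts and the KO-labelled libraries held 12, 10, 10, 15 and 9. Groups are therefore named as labelled. WT-labelled library 1 stood apart, with a summed 2288 CPM (counts divided by the scaled size of the library) of airway and lung markers against 54.3 to 258.7 CPM in the others, 1444 CPM of atrial markers against at most 331.2 CPM, 792 CPM of fat markers against at most 54.2 CPM, and the lowest share of mitochondrially encoded counts, 22.95%. It also had the lowest sum of 10 cardiomyocyte markers, 21551 CPM, and KO-labelled library 4 had the highest, 64093 CPM. KO-labelled library 2 had the highest sum of T and natural killer cell markers, 21.9 CPM, against at most 5.40 CPM in the others.

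The letters at the start of the transcript were examined first, since they are what the TOP class is defined by. RefSeq start sites (GRCm38.p6) were matched by symbol for 63 of the 84 genes. A C followed by at least 4 further letters that are C or T, on the transcribed strand and within 5 bases of a start site, was present in 29 of the 63, or 46.0% (95% Wilson interval 34.3 to 58.2%). The same letters were present in 21.2% of all 27025 genes of the table and in 24.6% of 69 mitochondrial ribosomal protein genes, whose products work in the mitochondrial ribosome. With the run required to begin exactly at the start base, the shares were 20.6% of the cytosolic genes and 3.01% of all genes. A match is a description of the letters in this window, and an annotated start can lie some bases away from the main one.

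A few start regions are printed to show the tract beside genes without it, each running 5′ to 3′ from 10 bases before the RefSeq start to the 20th base from it. Capitals mark the C and T letters counted by the search, from the C where the match was taken to the next letter that is neither. C or T letters can also stand just before the capitals, so the whole run in the genome may begin earlier. Rps6, a small-subunit protein that is phosphorylated by S6 kinase, Rps18 and Rps10 have such letters from the start base on. Rps27 has fewer of them from its start base, and its paralog Rps27l has 5, counted from 1 base later. No such run was found near either RefSeq start of Rpl3l, of which the first is shown.
Rps6 (chr4:86857348-86857377, minus strand): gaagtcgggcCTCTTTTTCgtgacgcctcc
Rps18 (chr17:33955646-33955675, minus strand): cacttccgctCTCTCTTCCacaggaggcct
Rps10 (chr17:27635225-27635254, minus strand): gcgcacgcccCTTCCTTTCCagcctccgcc
Rps27 (chr3:90213629-90213658, minus strand): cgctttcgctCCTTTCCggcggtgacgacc
Rps27l (chr9:66946076-66946105, plus strand): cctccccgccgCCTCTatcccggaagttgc
Rpl3l (chr17:24727816-24727845, plus strand): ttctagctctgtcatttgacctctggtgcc

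Levels per length differed widely between the genes. On the scale of CPM per kb of canonical transcript, the median over the 82 tested genes was 112 CPM per kb. The highest levels were those of Rps2 at 403 ± 33.5 (SD over 10 libraries), Rpl23a at 403 ± 45.7, Rps15 at 378 ± 37.7, Rps14 at 353 ± 49.4 and Rps3a1 at 347 ± 33.5 CPM per kb, and the ranges of these 5 over libraries overlapped. The lowest among tested genes were Rps4l at 5.82 ± 1.66, Rpl37 at 12.7 ± 1.73, Rpl39 at 16.0 ± 3.02, Rps15a at 16.6 ± 1.80 and Rps20 at 18.1 ± 2.55 CPM per kb. The order depends on the length used, because canonical transcripts of these genes run from 382 to 6111 bases and some hold long untranslated parts. Per kb of coding length the highest was Rpl41, whose protein is very short, at 989 ± 108 CPM per kb, followed by Rps24 at 591 ± 55.7 CPM per kb. Rpl37 then stood 35th in place of 81st, while Rps4l kept rank 82.

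**Figure D1:**
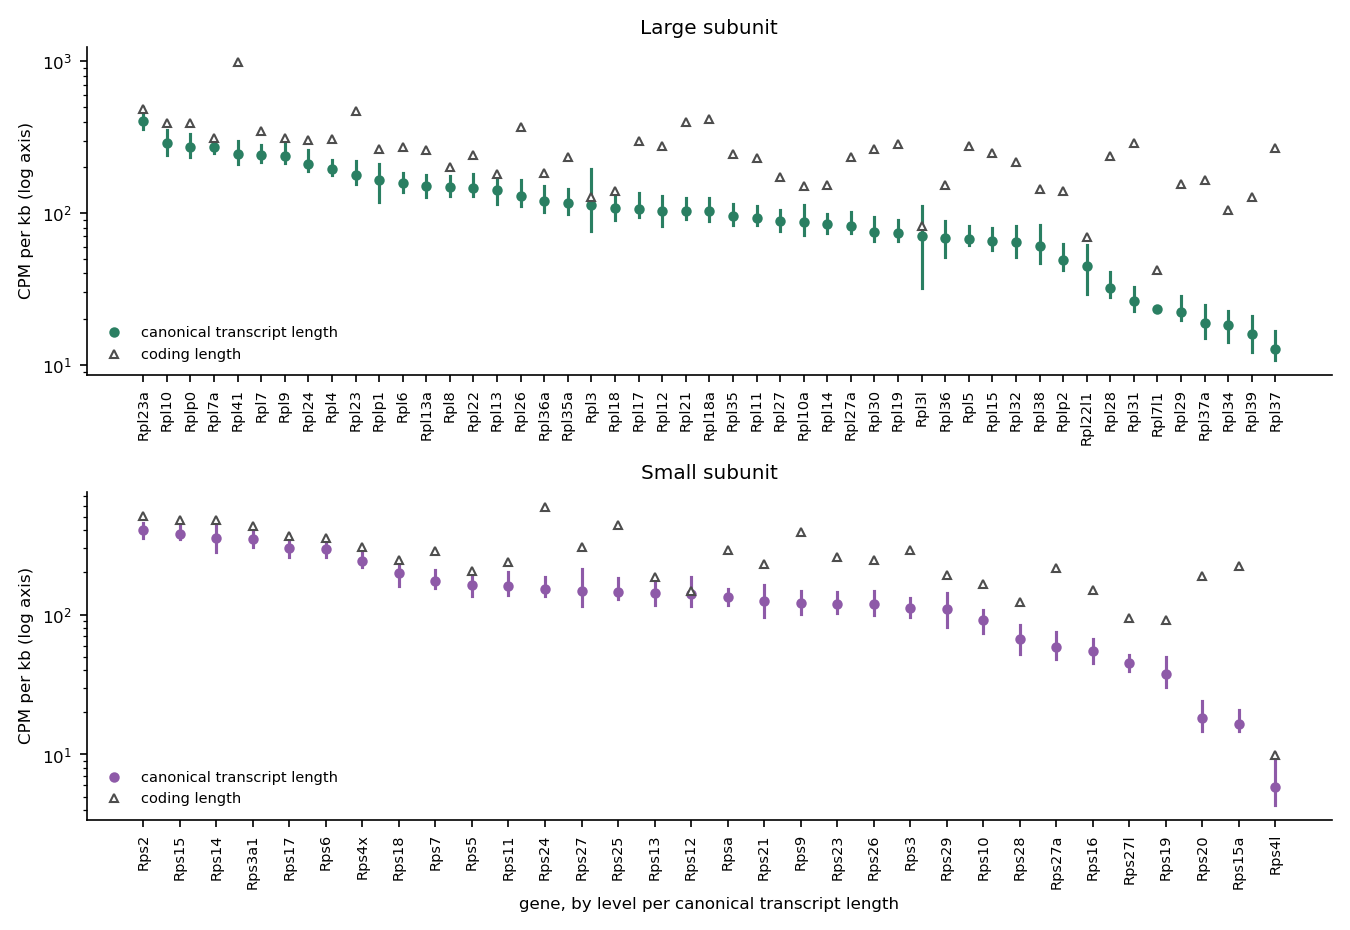
Level of 81 of the 82 tested genes in CPM per kb (log axis), large subunit above and small subunit below, sorted by the level per canonical transcript. Filled points are means over 10 libraries and vertical lines run from the lowest to the highest library; open triangles are means per coding length, which lift genes with long untranslated parts such as Rpl37 and Rps15a.

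None of the 82 tested genes was called between KO-labelled and WT-labelled hearts, where edgeR called 0.353% of all genes. No gene had an unadjusted p under 0.05, against 6.86% of all genes, and none had 5 values of either group all above the 5 of the other, against 1.78% of all genes. DESeq2 called 0 of them as well, against 0.707% of all genes. The median log2 fold change of the 82 genes, knockout over wild type, was -0.013, with 32 above 0 and 50 below, beside -0.014 over all genes tested. It was -0.013 for the 49 tested large-subunit genes and -0.012 for the 33 of the small subunit. The split around 0 rested on single libraries. The number above 0 was 4 without KO-labelled library 1 and 15 without WT-labelled library 5. It was 50 without WT-labelled library 1, and 56 and 60 without KO-labelled libraries 4 and 5. It was 66 without WT-labelled library 1 and KO-labelled library 4 together, the lowest and the highest in cardiomyocyte markers. There 0 of 82 were called and the median was 0.045. The median size of the log2 fold change, regardless of sign, was 0.032 for these genes and 0.12 for all genes tested. These sizes were not matched for level: the median standard error was 0.11 for these genes and 0.16 for all genes tested.

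The intervals give the range of differences between these samples that this fit and scaling allow. The 95% interval of the fold change (edgeR, from the approximate standard error) held 0 for all 82 genes and lay within a 1.5-fold change either way for 79, whose bounds ran from -0.55 to 0.38 on the log2 scale. The 3 genes with wider intervals were Rpl3l, from -0.17 to 0.86, Rpl3, from -0.75 to 0.10, and Rps4l, from -0.10 to 0.74. The median standard error was 0.11 on the log2 scale. The other 79 genes had log2 fold changes from -0.15 to 0.17. Differences inside a gene's own interval are not excluded with this spread between libraries. The intervals do not cover the choice of scaling or libraries. For Rpl22l1, among the 79, the lower bound was -0.65 without KO-labelled library 1 and -0.72 with library totals alone, both past 1.5-fold. The median half-width of the intervals over the 82 genes was 0.23 on the log2 scale.

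**Figure D2:**
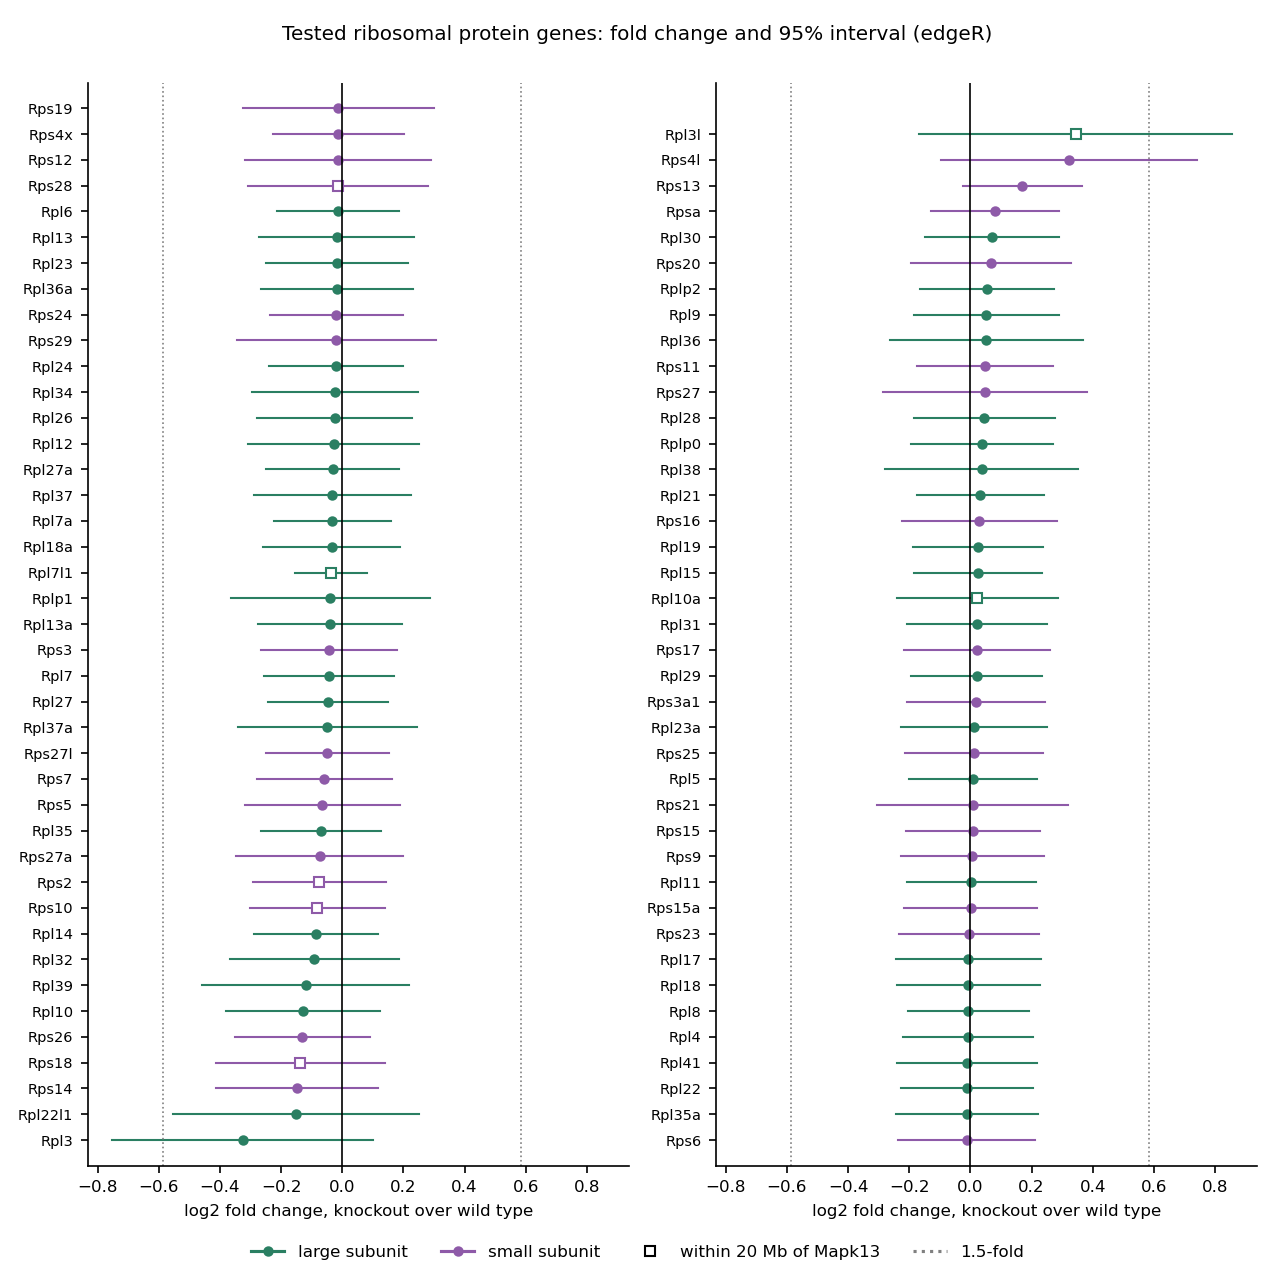
Log2 fold change, KO-labelled over WT-labelled, of 81 of the 82 tested genes with its 95% interval from edgeR, sorted from lowest (bottom left) to highest (top right). Every interval crosses 0, and only those of Rpl3, Rpl3l and Rps4l pass the dotted lines at 1.5-fold; open squares mark the 7 genes within 20 Mb of Mapk13.

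Among large-subunit genes, Rpl5 and Rpl11, which with 5S ribosomal RNA bind the p53 inhibitor Mdm2 when ribosome assembly is disturbed, had nearly equal group means. Rpl5 had 257, 252, 231, 248 and 236 CPM in the WT-labelled and 298, 250, 224, 227 and 232 CPM in the KO-labelled libraries. The groups overlapped, with KO-labelled library 1 above the rest, and the log2 fold change was 0.009 (SE 0.096, edgeR adjusted p = 0.99). Rpl11 had 132, 125, 116, 131 and 110 CPM in the WT-labelled libraries and 148, 126, 120, 110 and 111 CPM in the KO-labelled ones. Its log2 fold change was 0.004 (SE 0.096, edgeR adjusted p = 0.99). Rpl23 and Rpl26, which also bind Mdm2 or the p53 messenger RNA, had log2 fold changes of -0.018 and -0.025. Rpl13a, which leaves the ribosome to silence inflammatory messenger RNAs and is widely used as a reference gene, had -0.040 (SE 0.11).

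Rplp0, Rplp1 and Rplp2 form the stalk of the large subunit that recruits elongation factors. Rplp0, another common reference gene, had 374, 396, 373, 381 and 320 CPM in the WT-labelled and 452, 388, 368, 347 and 337 CPM in the KO-labelled libraries. Rplp1 had 98.4, 95.1, 99.2, 100.7 and 64.4 CPM against 115, 90.8, 90.3, 80.3 and 69.6 CPM, so that library 5 was lowest in both groups. Rplp2 ran from 43.9 to 50.9 CPM in the WT-labelled and from 40.8 to 60.6 CPM in the KO-labelled libraries. The 3 stalk genes had log2 fold changes of 0.037, -0.039 and 0.054, with adjusted p from 0.93 to 0.97 in edgeR. Per kb of canonical transcript their levels were 274 ± 26.6, 165 ± 27.7 and 49.3 ± 5.59 CPM (SD over 10 libraries).

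In the small subunit, Rps13 had the smallest p of all 82 genes. It had 68.8, 81.8, 76.2, 89.98 and 76.0 CPM in the WT-labelled and 101, 86.7, 89.3, 86.9 and 78.3 CPM in the KO-labelled libraries. The groups overlapped, and the log2 fold change of 0.17 (SE 0.089) did not pass the test (edgeR adjusted p = 0.74). Rps14, which sits beside the messenger RNA channel and whose loss is known from the 5q- syndrome, had 231, 224, 218, 261 and 198 CPM against 262, 200, 187, 171 and 200 CPM. Its log2 fold change was -0.15 (SE 0.12, edgeR adjusted p = 0.81), and KO-labelled library 1 was again the highest. Rps26, which contacts the messenger RNA upstream of the start codon, had 104.6 CPM in WT-labelled library 1 and 82.3 to 86.2 CPM in the other 4, with 70.9 to 96.4 CPM in the KO-labelled libraries.

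Other small-subunit genes with roles outside translation or in disease had log2 fold changes near 0. Rps6 had 284, 275, 247, 256 and 253 CPM in the WT-labelled and 319, 266, 234, 232 and 253 CPM in the KO-labelled libraries, with a log2 fold change of -0.012 (SE 0.10). Rps19, the gene most often mutated in Diamond-Blackfan anaemia, had a log2 fold change of -0.013 (SE 0.14). Rps3, which also takes part in DNA repair, had -0.042 (SE 0.10), and Rpsa, also known as a laminin receptor, had 0.081 (SE 0.096). All of these had adjusted p of at least 0.87 in edgeR.

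The 5 largest log2 fold changes each way among genes of mean CPM at least 10 were Rpl3 at -0.32, Rpl22l1 at -0.15, Rps14 at -0.15, Rps18 at -0.14 and Rps26 at -0.13, and Rpl3l at 0.34, Rps13 at 0.17, Rpsa at 0.081, Rpl30 at 0.071 and Rps20 at 0.068. None passed the test, and adjusted p ran from 0.74 to 0.92 in edgeR. Single libraries moved several of these values: without KO-labelled library 1, Rpl22l1 was at -0.32, Rps14 at -0.26, Rps18 at -0.23 and Rps26 at -0.20, and without KO-labelled library 4, Rpl22l1 was at -0.042.

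Genes linked to the deleted gene were looked at separately, since alleles near a targeted locus can be carried along with it. Within 20 Mb of Mapk13, edgeR called 6.29% of all tested genes, and in 12.4% the groups did not overlap. Of the 7 ribosomal protein genes there (Rps2, Rpl3l, Rps10, Rpl10a, Rps28, Rps18 and Rpl7l1), 0 were called and 0 had groups that did not overlap. Rpl10a, 0.438 Mb from Mapk13, had 105, 102, 101, 97.9 and 81.1 CPM in the WT-labelled and 127, 104, 92.6, 83.5 and 86.6 CPM in the KO-labelled libraries. Rps10, 1.13 Mb away, ran from 73.1 to 90.3 CPM and from 65.1 to 94.8 CPM, with a log2 fold change of -0.082 (SE 0.10). Rps2, at 4.05 Mb, ran from 405 to 494 CPM and from 386 to 482 CPM, with -0.076 (SE 0.099), and Rps18, at 5.17 Mb, had -0.14 (SE 0.13). Rps28 at 5.03 Mb and Rpl7l1 at 18.1 Mb had -0.013 and -0.038. Rpl36, on the same chromosome but 27.9 Mb away, had 0.052.

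The genes moved together from library to library. Their summed level was 12004, 11494, 11026, 12086 and 10294 CPM in the WT-labelled libraries. In the KO-labelled libraries it was 13716, 11360, 10588, 10401 and 10260 CPM. The groups overlapped, and their means were 11381 ± 743 and 11265 ± 1434 CPM (SD, n = 5 each). KO-labelled library 1 was the highest of the 10 for 72 of the 82 genes and above the gene's own mean for all 82. KO-labelled library 5 was below the gene's mean for 81 of 82, and WT-labelled library 5 for 80 of 82. The same counts over all genes tested are not given here. Whether these shifts are particular to ribosomal protein genes was not tested.

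The library with the highest sum depends on the scaling. With TMM factors, which were 1.302 for WT-labelled library 1 and 0.922 to 1.01 in the others, KO-labelled library 1 was highest. As a share of all counts, WT-labelled library 1 was highest at 1.53%, and the others ran from 0.958 to 1.29%. Whether the makeup of that library, which stood apart in its markers, set its share was not tested.

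Both subunits moved in step. The ratio of the summed large-subunit to the summed small-subunit CPM stayed between 1.38 and 1.43 in the 10 libraries, at 1.40 ± 0.018 in the WT-labelled and 1.41 ± 0.015 in the KO-labelled group (SD, n = 5 each). The SD of log2 CPM over the 10 libraries had a median of 0.16 over the 82 genes, the same as 0.16 over the 5406 tested genes of mean CPM at least 20. After the median deviation of each library was taken off, it was 0.076, and 78 of the 82 genes lay under 0.2. Those medians came from the same 82 genes, and no such figure over all genes is given here. The 4 genes at or above that were Rpl3l at 0.51, Rps4l at 0.39, Rpl3 at 0.31 and Rpl22l1 at 0.23. Genes with shorter coding sequences spread more, with a Spearman correlation of -0.46 between that first SD and coding length across the 82 genes, which share the same 10 libraries and are no independent replicates. The correlation of coding length with the deviation of KO-labelled library 1 from each gene's own mean was -0.63. With the log2 fold change it was 0.016.

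**Figure D3:**
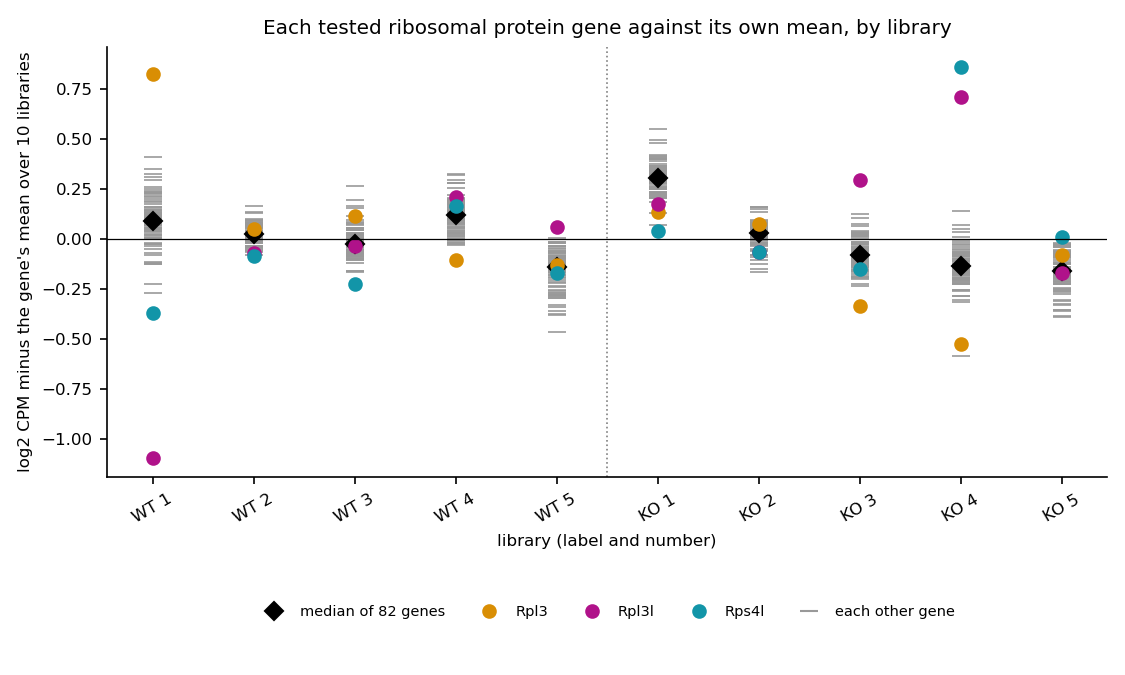
Deviation of each gene's log2 CPM from its own mean over the 10 libraries, by library; grey dashes are single genes, black diamonds the median of the 82. KO-labelled library 1 lies highest, with a median of 0.30, and KO-labelled library 5 lowest, with -0.16, while Rpl3 and Rpl3l leave the rest in WT-labelled library 1, and Rpl3 at -0.53, Rpl3l, Rps4l and Rpl22l1 at -0.59 do so in KO-labelled library 4.

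Rpl3 and Rpl3l, the ubiquitous and the muscle form of the same large-subunit protein near the peptidyl transferase centre, had the widest intervals and opposite signs. Rpl3 had 264, 154, 161, 138 and 136 CPM in the WT-labelled libraries and 163, 157, 118, 103 and 141 CPM in the KO-labelled ones. Rpl3l had 45.2, 92.0, 94.1, 111 and 101 CPM in the WT-labelled and 109, 92.1, 118, 158 and 85.7 CPM in the KO-labelled libraries. WT-labelled library 1 was the highest for Rpl3 and the lowest for Rpl3l, and KO-labelled library 4 was the reverse. The log2 fold change was -0.32 (SE 0.19, edgeR adjusted p = 0.75) for Rpl3 and 0.34 (SE 0.23, adjusted p = 0.77) for Rpl3l.

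With WT-labelled library 1 and KO-labelled library 4 left out, these fold changes were -0.025 (SE 0.099) for Rpl3 and 0.026 (SE 0.10) for Rpl3l. Per coding length, Rpl3l made up 14.5, 37.2, 36.7, 44.4 and 42.3% of the pair in the WT-labelled and 39.8, 36.8, 49.8, 60.2 and 37.6% in the KO-labelled libraries. The summed level of all 10 cardiomyocyte markers, each of which was tested and none called, ran from 21551 to 49310 CPM and from 28707 to 64093 CPM in the same order of groups. It was lowest in the library with the lowest Rpl3l share and highest in the one with the highest. In bulk heart RNA fewer cells of a type and less RNA per cell cannot be told apart, and the part of the marker levels in the Rpl3l values was not tested.

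**Figure D4:**
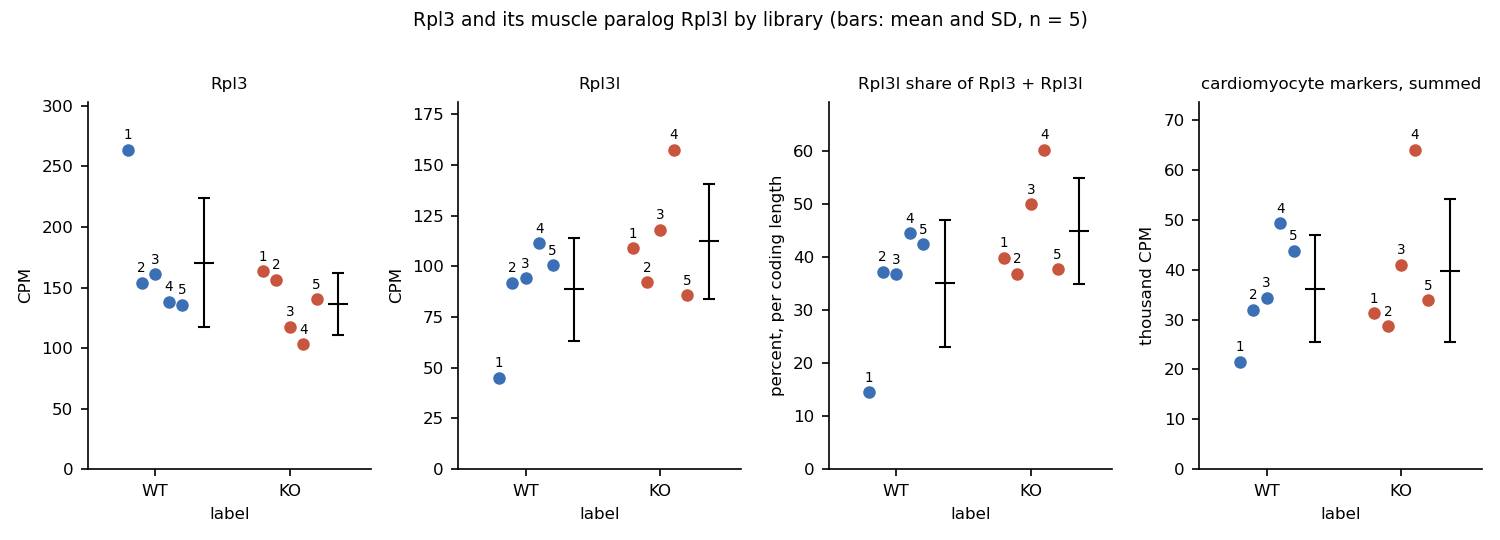
CPM of Rpl3 and of Rpl3l, the share of Rpl3l in the pair per coding length, and the summed cardiomyocyte markers, each by label; numbered points are libraries and bars give mean and SD (n = 5). WT-labelled library 1 has the highest Rpl3 (264 CPM) and the lowest of the other 3 measures, and KO-labelled library 4 has the lowest Rpl3 (103 CPM) and the highest of the other 3.

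Rps4l, a paralog of the X-linked small-subunit gene Rps4x, was the third gene with a wide interval. It had 5.84, 7.11, 6.46, 8.47 and 6.71 CPM in the WT-labelled and 7.75, 7.22, 6.81, 13.7 and 7.61 CPM in the KO-labelled libraries. KO-labelled library 4 was alone above 10 CPM, and the log2 fold change of 0.32 (SE 0.19, edgeR adjusted p = 0.75) became 0.091 (SE 0.12) without it. Per coding length Rps4l made up 2.83 ± 0.429% of the pair with Rps4x in the WT-labelled and 3.54 ± 1.26% in the KO-labelled group (SD, n = 5 each). Rps4x itself had means of 240 ± 22.5 and 238 ± 23.7 CPM.

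The other paralogs held steadier shares. Rpl22l1, which stands in for Rpl22, had 28.6, 25.5, 29.5, 29.9 and 18.9 CPM in the WT-labelled and 34.3, 22.1, 22.7, 16.4 and 23.7 CPM in the KO-labelled libraries. It made up 23.2 ± 2.73% of the pair per coding length in the WT-labelled and 21.3 ± 2.41% in the KO-labelled group. Rps27l, a target of p53, made up 24.4 ± 1.35% and 23.5 ± 2.99% of the pair with Rps27. Rpl7l1 made up 10.9 ± 0.646% and 10.9 ± 0.717% of the pair with Rpl7, and its own CPM of 29.9 to 32.5 varied the least of the 82 genes. Each of these shares overlapped between the groups.

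The 2 untested genes are paralogs known mainly from the testis. Rpl10l had 0 counts of 313574616 over the 10 libraries, which allows a level of up to 0.00957 CPM (3 counts), for counting error only. Rpl39l had 20 counts, 17 in the WT-labelled and 3 in the KO-labelled libraries, spread over 8 libraries. Identity in coding sequence was taken over aligned bases, with gaps left out. Rpl10 and Rpl10l are 84.7% identical, Rpl39 and Rpl39l 84.3%, Rpl3 and Rpl3l 74.3%, and Rps4x and Rps4l 80.0%. Rps27 and Rps27l are 76.2% identical, Rpl22 and Rpl22l1 71.8%, and Rpl7 and Rpl7l1 61.8%. The alignments of Rpl39 with Rpl39l and of Rpl7 with Rpl7l1 held 84 and 98 gap positions, so over the whole sequence these pairs are less alike.

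Ribosomal protein genes have many processed copies, and the authors' counts divide reads that match several places by estimation. At 95% identity over at least 200 bases, 577 pseudogenes matched 74 of the 84 genes, and 174 of the 577 had no count in any library. Together the copies had 242 to 372 CPM per library. The highest were Gm15500, a copy of Rpl5, at 31.5 CPM, Gm7536, a copy of Rpl27a, at 26.9 CPM, Rps6-ps4 at 21.4 CPM, Rps3a2, a copy of Rps3a1, at 10.3 CPM and Rpl31-ps8 at 8.17 CPM. Copies held over 10% of the CPM of gene and copies together for 3 genes, Rpl27a at 20.8%, Rpl5 at 11.4% and Rpl27 at 10.8%, so the levels of these 3 are uncertain. With copies added to their parents, 0 of the 82 genes were called and the median log2 fold change was -0.0073.

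Many of the genes also carry small nucleolar RNA genes, which guide the modification of ribosomal RNA. A snoRNA gene lay inside 30 of the 84, or 35.7%, with 59 snoRNA genes in all, against 1.72% of 13356 tested protein-coding genes. Rpl4 held 5 and Rpl13a held 4. None of these hosts was called.

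The other lists of the translation machinery were set beside the ribosomal proteins, and edgeR called 0 genes in each of them. Of 74 genes for RNA polymerase I and ribosome assembly, 16 had a log2 fold change above 0 and 58 below, with a median of -0.057 beside -0.014 over all genes. Of 79 mitochondrial ribosomal protein genes, 54 were above 0 and the median was 0.036. Over all genes tested, 7790 were above 0 and 8910 below. How the splits of these lists change with single libraries left out is not given here. The medians were -0.029 for 26 other TOP messenger RNAs, -0.0095 for 32 genes of initiation and elongation control, -0.015 for 31 genes of mTORC1 and S6 kinase signalling and 0.016 for 29 tested genes of ribosome stress and quality control. The 5 tested ribosomal protein genes outside the naming rule had log2 fold changes from -0.14 to 0.12, with a median size of 0.11. Among them Rack1, the scaffold of the small subunit, had a log2 fold change of -0.014 (SE 0.11) and Fau had -0.040 (SE 0.13).

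Of the 74 assembly genes, 4 had groups that did not overlap, beside 1.78% of all genes. Riok2, a kinase of late small-subunit maturation on chromosome 17 near Mapk13, had 27.6, 26.9, 27.3, 28.0 and 25.5 CPM in the WT-labelled and 22.4, 21.1, 24.2, 22.7 and 22.0 CPM in the KO-labelled libraries. Its log2 fold change was -0.27 (SE 0.061, edgeR adjusted p = 0.20). DESeq2 called it, at -0.26 (SE 0.063, DESeq2 adjusted p = 0.0089), so the call depends on the tool. Among all tested genes within 20 Mb of Mapk13, edgeR called 6.29%, and the groups did not overlap in 12.4%. Fbl, the methyltransferase fibrillarin, had 17.2, 14.5, 14.4, 18.0 and 14.5 CPM against 12.3, 11.2, 11.8, 13.3 and 13.1 CPM, with a log2 fold change of -0.35 (SE 0.092, adjusted p = 0.37). Grwd1, a chaperone of Rpl3, had -0.36 (SE 0.10, adjusted p = 0.56), and Utp4 had -0.13 (SE 0.061, adjusted p = 0.72). None of the 4 passed the edgeR test, and of them DESeq2 called Riok2 alone. The WT-labelled libraries lay above the KO-labelled ones in each.

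Single genes with the smallest p in the other lists of the translation machinery did not pass the edgeR test. Eef2k, the kinase that brakes elongation through Eef2, had 32.3, 37.5, 36.5, 36.5 and 35.9 CPM in the WT-labelled and 38.4, 39.7, 40.4, 38.6 and 38.9 CPM in the KO-labelled libraries. Its groups did not overlap, with a log2 fold change of 0.13 (SE 0.059, edgeR adjusted p = 0.71). That was 1 of the 32 genes of its list, beside 1.78% of all genes. With library totals alone the log2 fold change of Eef2k was 0.040 (SE 0.081). Mrps10, on chromosome 17, had a log2 fold change of 0.36 (SE 0.098, adjusted p = 0.44), the mTORC1 inhibitor Sesn2 had -0.45 (SE 0.18, adjusted p = 0.69), and Ascc3, a helicase that splits collided ribosomes, had -0.31 (SE 0.11, adjusted p = 0.62).

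**Figure D5:**
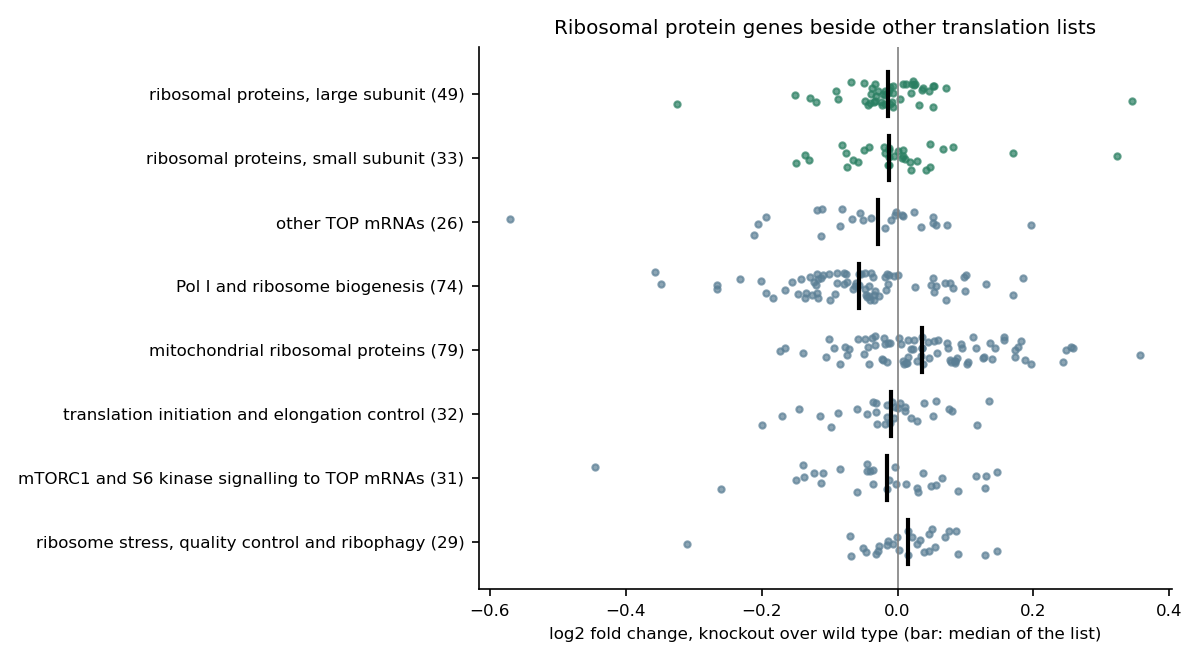
Log2 fold change, KO-labelled over WT-labelled, of every tested gene of the 2 ribosomal subunits and of 6 other lists of the translation machinery; points are genes, spread vertically only for legibility, and black bars are medians. Apart from Rpl3, Rpl3l and Rps4l, both subunits lie between -0.15 and 0.17, while assembly genes have a median of -0.057 and mitochondrial ribosomal proteins one of 0.036.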

How the data were processed

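The authors deposited expected counts per gene, which were whole numbers in all 10 libraries. STAR 2.5.2 aligned the reads to GRCm39, per the labels' protocols. The submitters' processing notes also name RSEM 1.3.0, which shares out reads matching several genes by estimation, so near-identical genes are uncertain. Annotation release, strand setting and trimming were not given in the sources used here. Symbols, positions and lengths came from GENCODE, which held 78168 of the 78298 identifiers.

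All 10 libraries were fitted with edgeR 4.0.16 (R 4.3.3) and its quasi-likelihood test, with TMM factors, the default filter with a minimum count of 10, robust dispersions, no covariate and Benjamini-Hochberg adjustment over 16700 genes at 0.05. Standard errors are approximate, taken from the fold change and its F statistic. Library totals limit the precision of low genes, and floors and intervals of shares cover counting error only. Alternatives were other scalings, DESeq2 1.42.0, limma 3.58.1 (voom), other filters, 1 surrogate variable (sva 3.50.0), copies (BLAST 2.17.0) added to parents, and libraries left out. Coding length was added after the data were seen. The procedure was tested on simulated data.

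Named were Mapk13, genes called or with groups that did not overlap, the 5 highest and lowest per length, the 5 largest log2 fold changes each way at a mean CPM of at least 10, those within 20 Mb of Mapk13, paralog pairs, genes with roles outside the ribosome, the smallest p of each list and the 5 highest copies. Rpl41, Rps24, Rpl4, Rpl27 and Utp4 were chosen after their values were seen. A few results are not reported here. The members and lists were chosen with earlier results of these data known.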

Additional observations from a re-analysis of the deposited data

Results flagged for a closer look

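In groups of 5 libraries, a library was singled out where its gap to the nearest other exceeded 0.71 of the group's range, which chance gives in about 1 of 20 groups. Over the 82 tested genes and both groups this happened 21 times in 164 looks, and genes that move together are not independent looks. Of the 21, 13 were KO-labelled library 1 as the highest and 4 were WT-labelled library 5 as the lowest.

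Values are given here only for the genes that the naming rule picked, which are 6 of the 13. KO-labelled library 1 was singled out as the highest for Rpl22 at 115.007 CPM, Rps4x at 279.6 CPM and Rpl23a at 282 CPM. It was also singled out for Rpl26 at 203 CPM, Rps15 at 251 CPM, Rpl7l1 at 32.5 CPM and the summed small-subunit level at 5697 CPM. The gap is relative to the group's range, and for Rpl7l1 the next KO-labelled library was at 30.5 CPM. Among the other 7, chosen after their values were seen, the widest relative gaps were those of Rpl21 at 234 CPM and Rpl27a at 128.03 CPM. WT-labelled library 5 was far below its group for Rplp1 at 64.4 CPM and Rpl10a at 81.1 CPM. WT-labelled library 1 was far above its group for Rps26 at 104.58 CPM and Rpl3 at 264 CPM, and far below it for the share of Rpl3l at 14.5% and the share of mitochondrially encoded counts at 22.952%. KO-labelled library 4 was far above its group for Rps4l at 13.7 CPM and for its share of the pair with Rps4x at 5.77%.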

How the results depend on the processing

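Under each of 22 alternatives, 0 of the ribosomal protein genes were called, and over the 40 named ones the lowest adjusted p was 0.61. The median log2 fold change ran from -0.10 to 0.037 with each library left out in turn, the lowest without KO-labelled library 1 and the highest without KO-labelled library 5, and was -0.12 with library totals alone, where the median of all genes was also -0.12. Without WT-labelled library 1 and KO-labelled library 4 together it was 0.045. The number of genes above 0, 32 in the report, was 3 with library totals alone, 54 with voom quality weights and 49 with a surrogate variable. It was 66 without WT-labelled library 1 and KO-labelled library 4 together, and 4 to 60 with single libraries left out. These were 4, 56 and 60 without KO-labelled libraries 1, 4 and 5, and 50 and 15 without WT-labelled libraries 1 and 5. The median therefore had no stable direction. In 126 of 880 refits of a named gene the sign changed, with no call on either side, and 13 named genes kept their sign throughout. The median level per length was 40.95 CPM per kb over the union of exons and 245 CPM per kb over coding length, and the TOP letters were found in 20.6% at the start base only and 81.0% within 20 bases, where all genes had 3.01% and 53.3%. No paired analysis was possible because the labels give the 2 groups no shared replicate numbers. Riok2, an assembly gene, was called by DESeq2 alone among the 22 alternatives. Depth limits Rpl10l, which had no count, and Rpl39l, which was tested only with no filter on low counts and was not called there (edgeR adjusted p = 0.64).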
